A study of Homo sapiens with 12 samples.

Results

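The map described here is the list of N6-methyladenosine (m6A) peaks found in RNA of FTO knockdown cells. It holds every row of the knockdown peak list after 3 repeated rows were dropped, which leaves 28888 peaks of the 68380 in the lists of both conditions. All RNA came from HGC27 cells, a line established from a human gastric carcinoma. The knockdown libraries carry the titles sh1 to sh3 and the genotype label FTO-KO, while the extraction protocol speaks of a knockdown; the controls carry the titles Con1 to Con3 and the genotype WT, with no control hairpin named. Each condition had 3 immunoprecipitated (IP) and 3 input libraries, 12 libraries in all. Poly(A) RNA was broken into pieces of about 100 nt, part of it was pulled down with an antibody to m6A, and both parts were sequenced from paired ends. Nothing in the labels tells separate cultures or different hairpins apart among libraries 1 to 3, so a p-value here reflects the spread of these libraries alone, which may be technical. One cell line was used, and each condition has a single deposited list, so a peak has no replicate error and the depth behind it is unknown. Intervals given for shares are exact binomial 95% intervals and cover counting error only.

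m6A is the commonest internal modification of messenger RNA. It is placed by a writer complex built on METTL3 and METTL14, mostly in a short motif that contains GGAC and often near the stop codon and in the 3′UTR, and it is bound by readers such as the YTH proteins and the IGF2BP family. FTO is a demethylase that removes m6A and also m6Am, a related mark on the first transcribed nucleotide when that nucleotide is an adenosine. Antibodies to m6A also bind m6Am, so a peak over a transcription start can hold either mark.

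Among the 10 most enriched genes of the map, 4 had a peak that held an annotated transcription start of the gene: MEN1, which encodes the tumour suppressor menin, FLVCR1, a haem exporter, G6PC3, a glucose-6-phosphatase subunit, and UBL3, a ubiquitin-like protein. The first 30 transcribed bases of each are shown because m6Am can lie only at the first; that base is in capitals. They were taken from the RefSeq table for GRCh38.p14.
MEN1, chr11:64810522-64810551, minus strand: Gtgcgccgcggtgcctagtgtgggatgtaa
FLVCR1, chr1:212858275-212858304, plus strand: Agaccttcatctgttcacgcggtagcgcgg
G6PC3, chr17:44070735-44070764, plus strand: Agtagggaggaaaaccggaggagagcgcag
UBL3, chr13:29850588-29850617, minus strand: Agtcgcactcaggcagccgccgccgccgcc
The transcripts of FLVCR1, G6PC3 and UBL3 began with A at these annotated starts, and that of MEN1 with G. For FLVCR1, G6PC3 and UBL3 the peak began on the very first base. These peaks spanned 419, 181 and 391 bp, so such an edge does not place the mark at that base. The fold enrichment of IP over input, the authors' own value for each peak, was 599 for MEN1, 395 for FLVCR1, 385 for G6PC3 and 327 for UBL3, against 68.0, 213, 133 and 29.7 for the control peaks at the same places.

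Across the map, 1306 RefSeq starts of 1210 genes lay in a peak called on the same gene. Their first base was A in 52.5% (49.7% to 55.2%), G in 36.4%, C in 9.42% and T in 1.68%. Among the 12273 other starts of genes with a called knockdown peak, A came first in 46.2% (45.3% to 47.1%), and among all 35116 starts in 44.4%. The 1929 starts inside control peaks had A first in 53.4% (51.2% to 55.7%), an interval that overlaps that of the knockdown. GGACT stood in the first 50 transcribed bases, read on the transcribed strand only, of 6.51% (5.23% to 7.99%) of the starts in knockdown peaks, 5.70% (4.71% to 6.83%) of those in control peaks, 4.53% of the other starts of those genes and 4.90% of all starts. In all, 1238 peaks held a start of their called gene, and 411 of them (33.2%) began exactly on it. The median length of the 1238 was 271 bp, so an edge on the start does not place the mark there.

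The 28888 peaks carried 14170 listed genes (the gene that the authors' annotation columns give) and 19377 transcripts. Each row also names the gene on which the peak was called, and in 21.7% of rows the 2 names differ. The listed gene is used below, and the called gene is named where it differs. The median enrichment was 7.05, with quartiles of 3.83 and 12.7 and a range from 1.10 to 955. At least 10-fold enrichment was reached by 34.3% of knockdown and 25.6% of control peaks, and at least 100-fold by 88 knockdown and 21 control peaks. The control list was longer, at 39492 peaks, with a lower median of 6.11. An adjusted p of at most 1e-05 was given for 81.4% of knockdown and 61.7% of control peaks. Most knockdown peaks, 89.0%, shared at least 1 exonic bp with a control peak. With 1 list a condition and unknown IP depth, these differences between the lists have no test, and the part of depth in them was not tested.

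Peaks were spread over many genes rather than gathered on a few. A single peak was listed for 6906 genes (48.7%), and 51.3% had at least 2, against 54.6% of genes in the control list. At least 5 peaks were listed for 923 genes (6.51%), which held 19.8% of all peaks, and at least 10 for 55 genes. The mean was 2.04 peaks per gene.

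**Figure D1:**
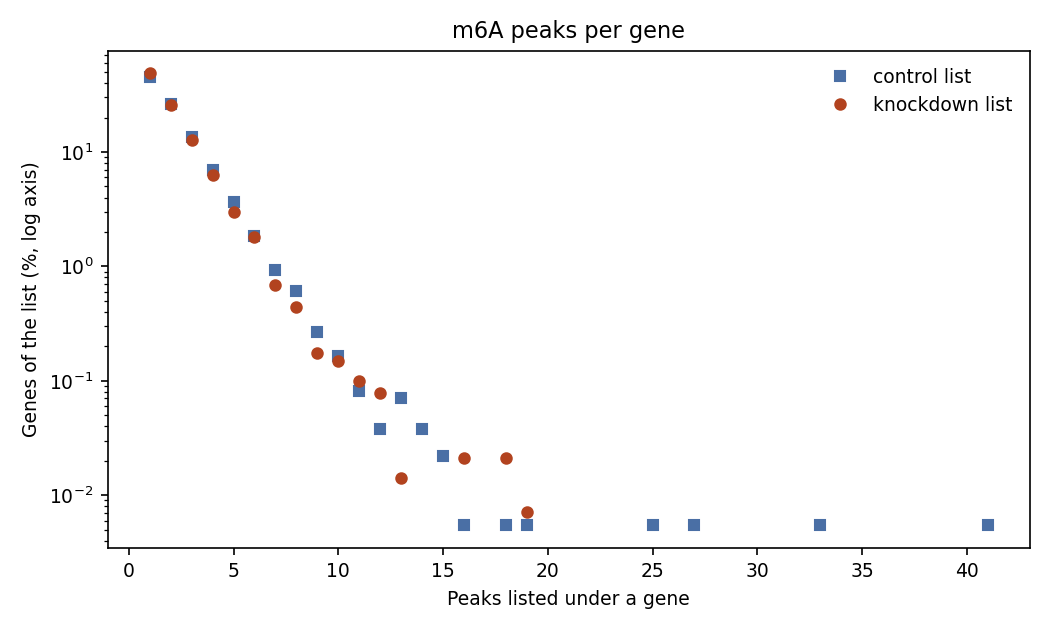
Share of the listed genes of each list (percent, log axis) by the number of peaks listed under a gene, for the knockdown list (circles) and the control list (squares). Genes with 1 peak make up 48.7% of the knockdown list, whose highest count is 19, and the highest count in the control list is 41.

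The long non-coding RNA LINC00662 had the most, 19 peaks between chr19:27682557 and chr19:27793345, against 33 in the control list. Their enrichment ran from 1.75 to 23.9 with a median of 6.64, and all 19 shared bases with a control peak. DST, which encodes the cytoskeletal linker dystonin, had 18 (25 in the control list), of which 13 lay in exons. SPG7, a mitochondrial protease subunit, had 18 (19). MACF1, another large cytoskeletal linker, had 16 (15), covering 9613 exonic bp. The cadherin FAT1 had 13 (10) and the ubiquitin ligase RNF213 had 13 (14). AATK, a kinase, had 12 (9), all listed in the 3′UTR, up to 67.9-fold.

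Other genes at the top of that order drew peaks called on their neighbours. PCDHAC2 had 18 peaks, but only 4 were called on it and the peaks of its row set were called on 15 genes in all; the alpha protocadherins share their last exons with it. Its median enrichment, 3.85, was the lowest of the 10. The histone methyltransferase gene KMT2A had 16, of which 10 were called on it, and ZC3H11A had 16, of which 8 were. The opposite case was KCNQ1OT1, the antisense RNA of an imprinted locus, with 6 peaks over 1266 bp in the knockdown list and 41 peaks over 11320 bp in the control list; at an adjusted p of at most 1e-05 these were 3 and 10 peaks.

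The median exonic length of a peak was 271 bp, with quartiles of 169 and 507 bp; in the control list it was 330 bp. One exonic block made up 74.7% of peaks. Lengths came in steps: 70.9% were a multiple of 30 bp or 1 bp more, and the commonest, 61 bp, was found 1406 times. Enrichment went up with length. The 3563 peaks of up to 100 bp had a median enrichment of 3.54, those over 200 and up to 500 bp had 6.62, and the 157 peaks over 2000 bp had 22.9. Overlap with the control list followed the same order: 61.2% of the shortest class, 95.5% of the class up to 500 bp and 100% of the longest shared bases with a control peak.

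**Figure D2:**
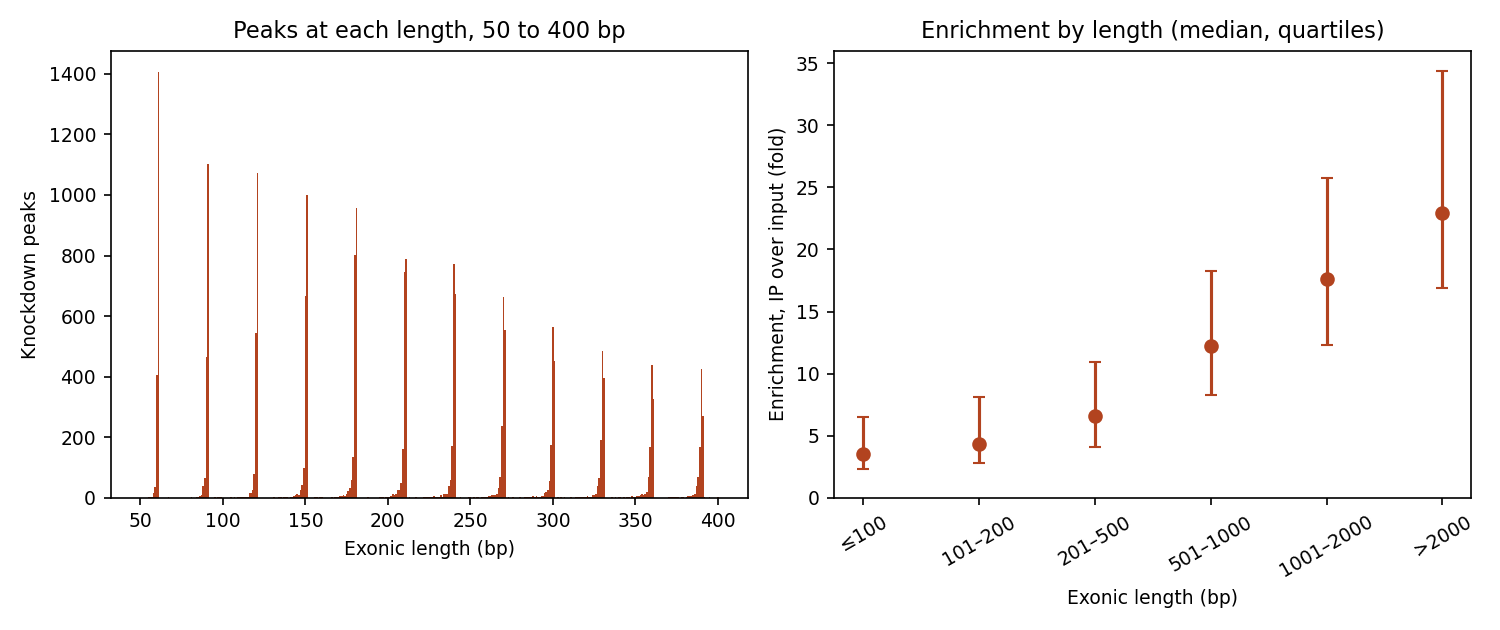
Left, number of knockdown peaks at each exonic length from 50 to 400 bp; right, fold enrichment of IP over input by class of exonic length, as the median (point) with the quartiles (bars). Lengths stand in steps of 30 bp with 61 bp the commonest, and the median enrichment goes from 3.54 in the class of up to 100 bp to 22.9 in the class over 2000 bp.

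The longest peaks lay on genes of large proteins and in the last exon of several. AHNAK2, a giant scaffold protein, had the longest, 12256 bp in 1 block in the last exon of the listed transcript (chr14:104941229-104953484, 24.9-fold, 21.5-fold for the control peak). AHNAK followed with 5579 bp at 10.5-fold in the last exon. PLEC, which encodes plectin, had 5006 bp at 19.1-fold, and the zinc finger gene ZNF646 had 4228 bp at 26.9-fold. The peak of 4140 bp listed for AL121929 was called on SH3PXD2A. FEM1A, with 3751 bp, and the unnamed locus AC005523, with 3512 bp, cover the same place on opposite strands, so the same reads may have been counted for both. NUMA1, HELZ2 and TNKS1BP1 complete the 10, with 4106, 3594 and 3590 bp. All 10 shared bases with a control peak.

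By region, 46.5% of peaks were listed in the 3′UTR, 13.9% in the 5′UTR and 39.6% in other exons. The control list gave 47.6%, 12.6% and 39.8%. Peaks in the 3′UTR were the longest, with a median of 331 bp and 7.28-fold enrichment, against 269 bp and 6.87-fold in the 5′UTR and 240 bp and 6.78-fold in other exons. Of the 3′UTR peaks 93.1% shared bases with a control peak, of the exon peaks 86.0% and of the 5′UTR peaks 83.6%. The gene named by the annotation was also the called gene for 91.4% of 5′UTR but 70.3% of 3′UTR peaks. On transcripts listed as protein-coding, 28.3% of peaks were in the 5′UTR and 44.5% in the 3′UTR.

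Protein-coding transcripts held 10503 peaks (36.4%). Retained-intron transcripts held 5047 (17.5%) with a median enrichment of 5.85, processed transcripts 17.1%, and long non-coding RNAs 4233 (14.7%) with a median of 7.77. Transcripts subject to nonsense-mediated decay held 5.11% and processed pseudogenes 3.58%. Peaks listed on small RNA genes were seldom called on them. Of 305 peaks listed on a miRNA gene, 7 were called on that gene and 18 held its whole hairpin, and of 152 listed on a small nuclear RNA, 1 was called on it. The listed gene was the called gene for 62.2% of lncRNA peaks and 52.3% of processed pseudogene peaks, against 80.0% of peaks on protein-coding transcripts.

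**Figure D3:**
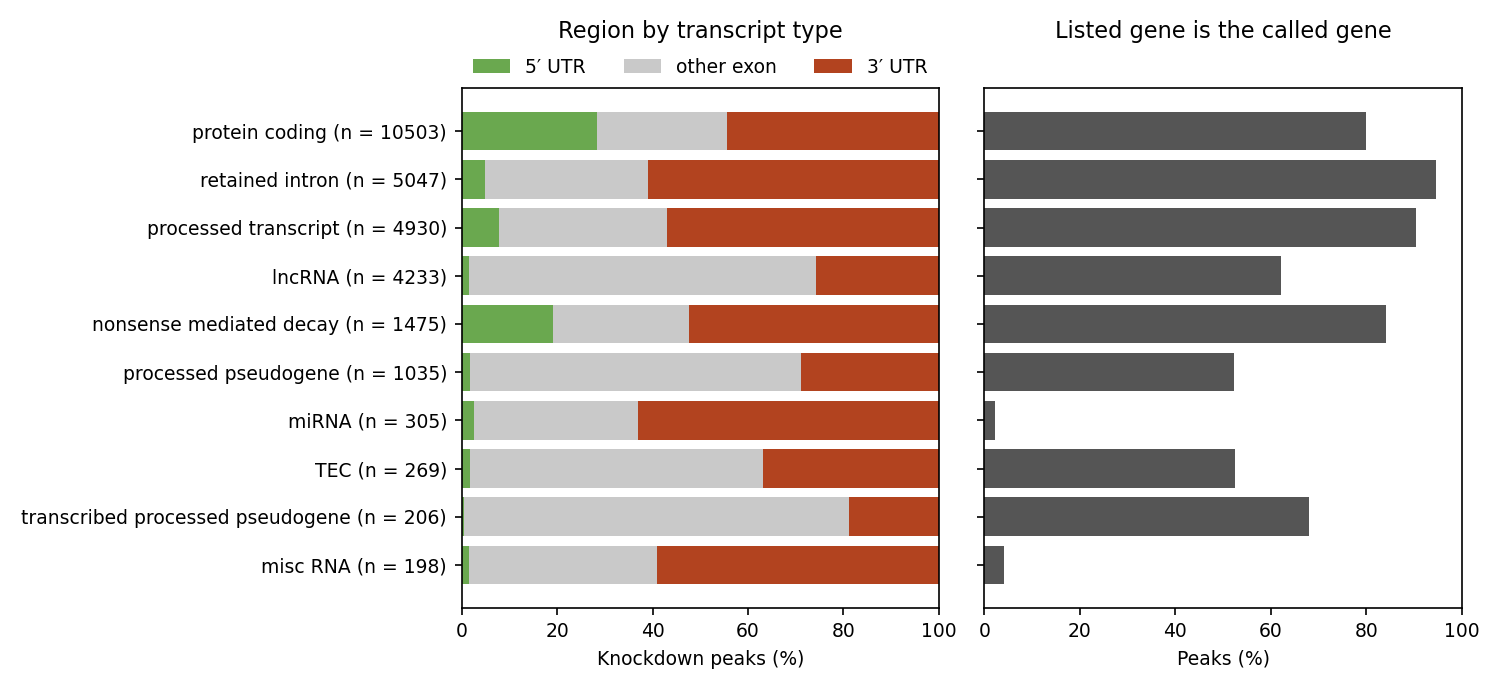
Left, percent of knockdown peaks listed in the 5′UTR, in other exons and in the 3′UTR for the 10 commonest transcript types, with the number of peaks; right, percent of the same peaks whose listed gene is the gene they were called on. Peaks in the 5′UTR make up 28.3% on protein-coding transcripts, and the listed gene is the called gene for 94.7% of retained-intron but 2.30% of miRNA peaks.

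The single most enriched peak lay in the 3′UTR of OLIG2, a transcription factor best known from the oligodendrocyte lineage, at 955-fold (chr21:33027700-33028358; 795-fold in the control list). Next to the 4 start-site peaks given above came the histone gene H3-2 at 530-fold (71.8-fold in the control list). Its called gene carries the symbol H3-7, and whether both symbols name the same gene was not checked. The peak may also be uncertain between near-identical histone genes. ZNF205 reached 351-fold (219) and PGGHG, a collagen glucosidase gene, 346-fold (43.8). ADORA1, an adenosine receptor gene, reached 317-fold (47.6) and KLHDC7B 301-fold (49.6). All 10 values were above those of the control peaks at the same places; the peaks were chosen for their knockdown value, which favours that order, so nothing is read from it, and the number of input reads behind these ratios is unknown.

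Gene families differed in how many members had a peak. The base is the genes with a row in either list: 73.5% of all 19280 had a knockdown row and 95.0% a control row. These shares are descriptions, and no family was tested against the rest. Genes for zinc finger proteins, the largest class of DNA-binding regulators, had a knockdown peak in 409 of 466 cases (87.8%, 84.4% to 90.6%), with 2.94 peaks per gene, a median enrichment of 8.82 and a median length of 331 bp. ZNF469 and ZNF462 had 11 peaks each. The clustered protocadherins, adhesion proteins of nerve cells, had one in 50 of 53 genes, all but PCDHA3, PCDHB1 and PCDHB14; a 32.3-fold knockdown peak was called on PCDHB14 but listed under AC244517, so for it the listed name alone is absent. HOX genes, which set body-axis identity, had one in 32 of 36, all but HOXB2, HOXB5, HOXC4 and HOXC11. DEAD and DEAH box helicases had one in 42 of 47, led by DDX23 with 5 peaks. F-box genes, whose products choose targets for ubiquitin ligases, had one in 36 of 42, led by FBXW7 and FBXO10 with 5 each. TRIM ligase genes had one in 36 of 43, and TRIM41 reached 133-fold.

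Enrichment was below the median of the map in several other families, as it was in the helicases above, at 4.80-fold, and the control list gave medians of 3.12 for cytosolic ribosomal proteins, 3.75 for mitochondrial ribosomal proteins and 3.03 for proteasome subunits. Genes named as cytosolic ribosomal proteins had a peak in 28 of 43 genes (65.1%, 49.1% to 79.0%), with a median of 4.07-fold; RPL7L1 and RPS24 had the most, 4 each, but the strongest RPL7L1 peak was called on BICRAL. Mitochondrial ribosomal proteins had one in 46 of 56, at 5.40-fold. Proteasome subunits had one in 22 of 27, at 2.81-fold, the lowest median of the families described; PSMA3, PSMA6, PSMD5, PSMD8 and PSMD12 had none. Histone genes had one in 26 of 39, at 3.49-fold. Genes named as nuclear-encoded respiratory chain subunits had one in 38 of 55, at 4.55-fold. This class was drawn by name and also takes in the pseudogene ATP5PBP5. Of the 38 genes 9 had no control row, beside 6.75% of all genes of the map. Among non-coding classes, antisense RNAs had one in 362 of 523 and LINC genes in 236 of 418 (56.5%, 51.6% to 61.3%). Olfactory receptors had one in 3 of 17.

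**Figure D4:**
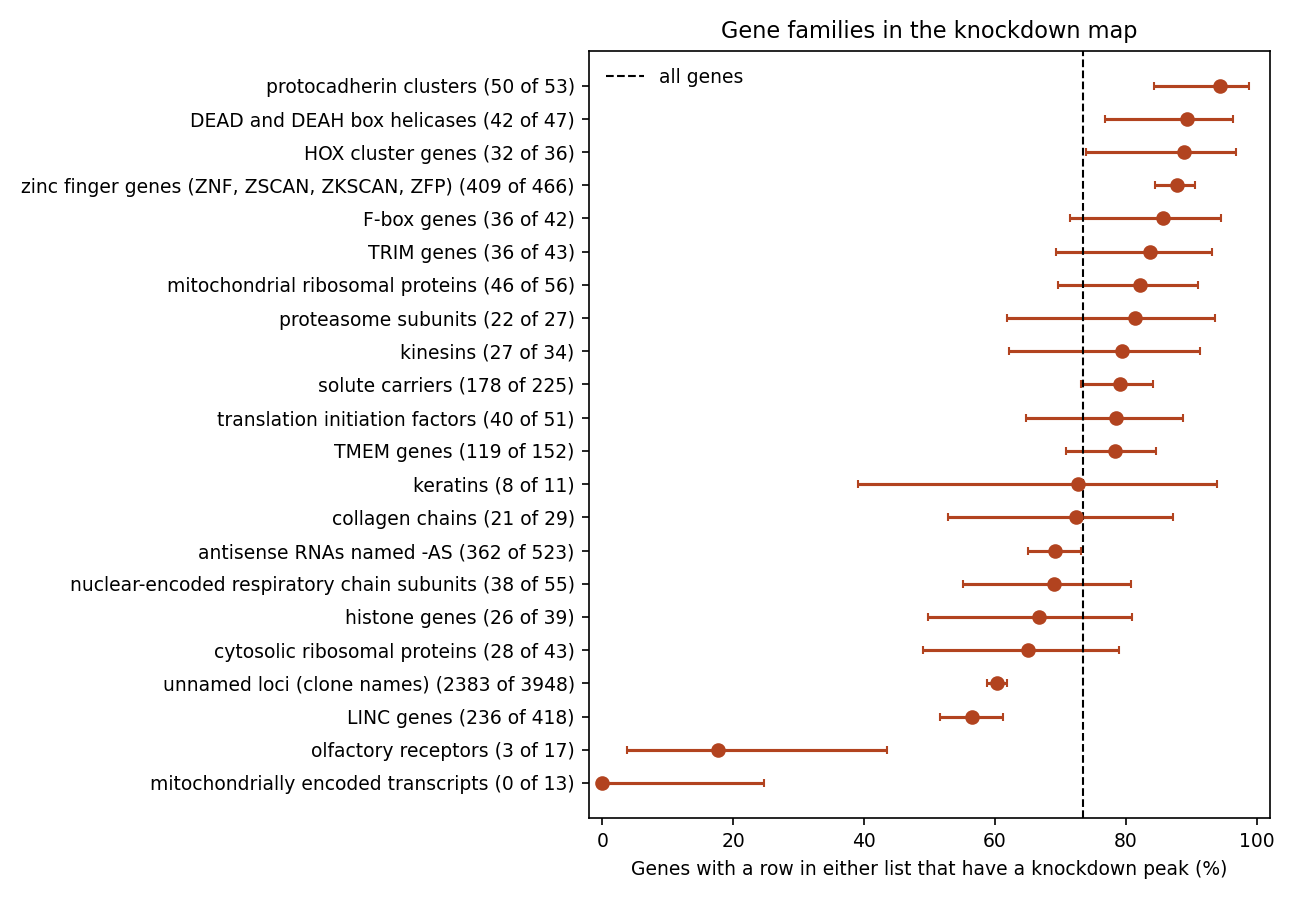
Percent of the genes of each family with a row in either list that have a knockdown peak (points) with exact binomial 95% intervals (bars); the dashed line marks the 73.5% of all genes. Zinc finger genes stand at 87.8%, cytosolic ribosomal proteins at 65.1% and mitochondrially encoded transcripts at 0%.

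No peak of the knockdown map lay on the mitochondrial genome. Of the 13 mitochondrially encoded genes with a row in the control list, which encode respiratory chain subunits and transfer RNAs, 0 had a knockdown row (upper limit 24.7%). The control list had 15 such peaks, with enrichment from 1.61 to 6.57 and a median of 3.05. The authors' deposited table of differential peaks held 14 mitochondrial peaks, all listed lower in the knockdown, with log2 values of knockdown over control between -1.17 and -0.704. In that table FTO's own peak was higher by 0.708 and the HOXC8 peak by 1.18 on the same scale, while the MDM2 peak at the place called on CPM had -0.819.

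The genes of the m6A pathway were themselves on the map. Of 11 writer genes checked 8 had a row in either list, and all 8 had a knockdown peak, beside 73.5% of all genes on that base. METTL5 and ZCCHC4 had no row in either list, nor did WTAP, although a knockdown peak was called on it. ZC3H13 had 5 peaks, METTL16 had 4 with one at 52.7-fold, VIRMA had 4, RBM15 and METTL3 had 3 each and METTL14 had 2. METTL3, the catalytic subunit, reached only 4.13-fold. Of 13 readers 11 had one, led by IGF2BP3 with 4 peaks and 32.0-fold; YTHDC2 and FMR1 had control rows only. ALKBH5, the other m6A demethylase, had 3 peaks, the strongest of which was called on another gene. FTO had 2 peaks against 6 in the control list. The first, 631 bp in 2 blocks between chr16:53825926 and chr16:53844219, was enriched 11.3-fold (4.22 in the control list), and the second, 61 bp in the 3′UTR, 6.47-fold with no control peak on it.

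The study's title concerns ferroptosis, a form of cell death driven by lipid peroxidation, and a route from HOXC8 through MDM2 to p53. HOXC8, a homeobox transcription factor, had a 3′UTR peak of 329 bp at 9.10-fold (3.36 in the control list), and a second peak at 1.98-fold (2.30) called on an unnamed overlapping gene. The input RNA of HOXC8 was low, and lower in the knockdown libraries (values below). MDM2, the ligase that targets p53, had an 870 bp peak in the 3′UTR at 25.8-fold (21.3); its other listed peak, at 10.7-fold, was called on the neighbouring CPM and stood lower than the control value of 25.3. Of 15 p53 target genes with a row in either list 12 had a knockdown peak, among them BBC3 at 42.9-fold and PMAIP1 at 22.5-fold, both death genes, and TIGAR with 4 peaks. CDKN1A, RRM2B and PLK3 had control rows only. Of 17 ferroptosis suppressor genes checked 12 had a row in either list, and all 12 had a knockdown peak. GPX4, FTL, GCLM and SCD had no row in either list, nor did MBOAT1, although a knockdown peak was called on it. The antioxidant regulator NFE2L2 had 3 peaks, up to 17.8-fold, DHODH reached 18.4-fold and the cystine carrier SLC7A11 2.89-fold, while GCH1 (2.61-fold) had no control row. Of 11 driver genes with a row in either list 9 had one, led by the iron reductase STEAP3 with 8 peaks, and CHAC1, which degrades glutathione, at 25.9-fold. VDAC2 and VDAC3 had control rows only. On the same base 73.5% of all genes had a knockdown peak, and none of these lists was tested against that share.

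Among abundant long non-coding RNAs, NEAT1, the scaffold of paraspeckles, had 7 peaks up to 117-fold, H19 reached 54.2-fold, NORAD 29.9-fold and TUG1 24.1-fold with 4 peaks, while MALAT1 had 1 peak of 1407 bp at 6.60-fold. Markers of cell types that could be present were checked in the same rows. Of 13 gastric epithelial markers 7 had a row in either list and 5 a knockdown row: KRT19, KRT7, CLDN18, MUC6 and CDH1, whose peak was called on the pseudogene FTLP14. The MUC6 peak (log10 adjusted p of -0.679) and the most enriched KRT19 peak (-1.28) had an adjusted p above 0.05. KRT8 and MUC1 had control rows only, though a knockdown peak was called on MUC1. Of the fibroblast markers 5 had a knockdown row, with THY1 at 16.4-fold and COL1A1 at 4.93-fold; among immune markers CD14 had one, with 4 peaks up to 8.18-fold, and among endothelial markers VWF. EPCAM, KRT18, MUC5AC, TFF1, TFF2 and GKN1 had no row among those analysed here. COL1A1, a fibroblast collagen, had 165, 167 and 176 FPKM in the control input and 149, 138 and 154 in the knockdown input. A row in a peak list depends on where m6A lies as well as on the RNA level, so these rows do not measure cell identity.

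A knockdown peak and no row in the control list was found for 956 genes (6.75%), with 1100 peaks (3.81%). The count was 440 with only knockdown peaks of adjusted p at most 1e-05 and 637 with only those of at least 4-fold enrichment. In both counts the control list was left unfiltered, which can only lower them. With adjusted p at most 1e-05 in both lists, an alternative chosen after seeing the data, the count was 1034. The mirror set, genes with control rows only, was larger, at 5110. The 956 had weaker evidence per peak: 87.3% had 1 peak, the median length was 150 bp against 271 bp over the whole map, and an adjusted p of at most 1e-05 was given for 45.6% against 82.8% for genes in both lists. Median enrichment was 5.76 against 7.09. Other exons held 57.8% of their peaks, lncRNA transcripts 29% and processed pseudogenes 9.82%.

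Some of these genes were absent from the control list by name only. For 292 genes a peak shared bases with a control peak listed under another gene. MIEF2, a regulator of mitochondrial fission, had a peak at 63.5-fold where the control list has 66.8-fold under AC127537. METTL18, a histidine methyltransferase gene, stood at 15.1-fold (13.6 under C1orf112), and RTN4RL2, a Nogo receptor relative, at 34.1-fold (22.8 under AP002893). AC008622, with 5 peaks up to 49.0-fold, was called on the glutamine carrier gene SLC1A5, and AC244517, also with 5, on PCDHB14. For 185 more genes no base was shared but the called gene had a control peak elsewhere. That left 479 genes with 529 peaks, of median length 121 bp, where no control base or called gene matched. Of these peaks 23.1% had an adjusted p above 0.05. The median enrichment of these 529 peaks was 6.47. Some members with the smallest adjusted p, looked up after their values were seen, stood below it. The lysosomal protein gene PSAP had 1.87-fold, the ribosome assembly gene RRP9 2.57-fold and RPL35 1.67-fold. The Integrator subunit INTS1, at 5.45-fold, and the motor KIF1A, at 6.15-fold, were nearer to the median.

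Among the genes with no control row, FANCI, of the DNA crosslink repair pathway, had 4 peaks up to 3.93-fold, and RAB27A, a vesicle transport GTPase, 3 up to 17.0-fold, with none of these top peaks on a control peak. Keratins, filament proteins of epithelia, were among them. Of the 8 keratin genes with a knockdown peak 6 had no control row (KRT6A, KRT7, KRT19, KRT24, KRT78 and KRT81), beside 6.75% of all genes of the map. The 7 peaks of these 6 genes ran from 2.18-fold to 9.70-fold. Of these peaks 2 had an adjusted p above 0.05 and 1, that of KRT81, an adjusted p of at most 1e-05. A control peak was called on KRT7, but the knockdown peak of KRT7 shared no base with a control peak. KRT8, KRT10 and KRT87P had control rows only.

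Some peak values recur exactly. In the knockdown list 1695 peaks (5.87%) carried a pair of enrichment and adjusted p found on 20 or more peaks, for example 8.89-fold with a log10 adjusted p of -1.39 on 124 peaks. Recurring pairs were commoner in the control list, with 6411 peaks (16.2%). The commonest there, on 811 peaks, was 6.11-fold, which equals the median of that list, with a log10 adjusted p of -0.436. Within the knockdown list, a recurring pair was carried by 23.1% of the peaks of the 956 genes and by 35.3% of the peaks of the 479. Of peaks with a recurring pair 62.8% shared bases with a control peak, against 90.6% of the other knockdown peaks. The peaks of KRT24 and KRT78 (both 9.70-fold), KRT6A (8.09-fold) and MUC6 (7.28-fold) carry a recurring pair. So do those of VWF (8.89-fold) and AIFM2 (8.89-fold), a ferroptosis suppressor.

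Input libraries gave expression for the listed genes as FPKM (fragments scaled to transcript length and library size) per library. The table holds only genes with a differential m6A peak, a selected part of the transcriptome, and in bulk RNA fewer cells of a type and less RNA per cell cannot be told apart. The change was tested with limma on log2(FPKM + 1), Benjamini-Hochberg adjusted at 0.05, over the 4515 genes whose mean reached 1 FPKM. Of them 62.4% were called, 24.5% as a rise and 37.9% as a fall. Every knockdown value lay above every control value in 1233 of the 4515 and below in 1829, so groups without overlap were common. Of the 4136 tested genes with a knockdown peak, 1037 (25.1%) rose and 1533 (37.1%) fell, with a median log2 change of -0.06, against -0.07 over all tested. The split depends on scaling: with each library centred on its median, 1406 rose and 1078 fell, and with quantile normalization 1338 rose and 1151 fell. The 337 tested genes with control rows only had 49 rises (14.5%) and 168 falls (49.9%), with a median of -0.17. By number of peaks, 21.3% of genes with 1 peak rose and 39.3% fell, and of genes with at least 5, 30.9% rose and 34.4% fell. The part of the input level in whether a gene has a peak was not tested.

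FTO itself checks the labels. Its control values were 5.48, 5.68 and 5.52 FPKM, and its knockdown values 0.786, 0.830 and 0.765, a log2 change of -1.87 (SE 0.0465; limma adjusted p = 4.99e-07). The groups did not overlap, and the libraries labelled FTO-KO still held FTO RNA, at 0.793 FPKM on average. HOXC8 had 1.23, 0.969 and 1.14 FPKM in the controls and 0.575, 0.448 and 0.558 in the knockdown libraries. Its mean was below 1 FPKM, so it was not tested. MDM2 had 4.43, 4.68 and 3.63 FPKM against 2.33, 2.28 and 2.37 and fell by 0.65 (limma adjusted p = 0.000238). LINC00662 had 2.94, 3.02 and 2.39 FPKM in the controls and 1.42, 1.60 and 1.62 in the knockdown libraries. It fell by 0.57 on the log2 scale (limma adjusted p = 0.000421), and every knockdown value lay below every control value. KCNQ1OT1 had 2.11, 2.15 and 1.88 FPKM against 0.997, 0.988 and 1.04, and fell by 0.60 (limma adjusted p = 8.04e-05). FAT1 had 76.9, 77.3 and 72.2 FPKM against 107, 108 and 109 and rose by 0.51. AHNAK had 51.6, 49.4 and 47.0 against 77.5, 78.5 and 78.6 and rose by 0.66 (limma adjusted p = 2.29e-05), while SPG7, with 18 peaks, had a change of 0.03 that did not pass the test.

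The mitochondrially encoded transcripts, which had no knockdown peak, had a median input level of 94.7 FPKM in the controls and 126 in the knockdown libraries. Of 11 tested, 9 rose and 0 fell, beside 24.5% and 37.9% over all tested genes, with a median log2 change of 0.48. The part of the input level in their missing peaks was not tested. MT-CYB, the cytochrome b gene, had 44.5, 44.0 and 53.1 FPKM in the controls and 103, 85.6 and 96.6 in the knockdown libraries, a log2 change of 1.0 (SE 0.0886; limma adjusted p = 6.57e-05). MT-ND1, a complex I subunit, had 104, 107 and 118 against 180, 149 and 183, a change of 0.63 (limma adjusted p = 0.000474). In 6 of the 11, MT-CYB and MT-ND1 among them, all knockdown values lay above all control values. The test was not passed by MT-ND4 or MT-ND5, and the calls of MT-CO2, MT-ND2, MT-TH and MT-TI were lost when 1 library was left out.

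Of the 956 genes without a control row 172 had FPKM and 113 were tested: 35 rose (31.0%) and 32 fell (28.3%), beside 24.5% and 37.9% over all tested genes. With each library centred on its median, 40 rose and 20 fell. The largest rise was that of KRT81, a hair keratin with near-identical relatives whose reads may be shared: 0.327, 0.195 and 0.445 FPKM became 3.74, 3.92 and 4.05, a log2 change of 1.89 (SE 0.0765; limma adjusted p = 3.43e-06). Its peak spanned 179 exonic bp at 2.18-fold (chr12:52287622-52288062). RRP9 rose from 21.2, 22.1 and 24.7 FPKM to 37.9, 36.1 and 38.6 (log2 change 0.71). The death inhibitor gene BCL2L1 rose from 20.2, 18.0 and 22.6 to 33.1, 32.3 and 34.2 (0.69), but its long peak of 1464 bp at 14.9-fold shared bases with a control peak listed under another gene. UHRF1, which guides maintenance DNA methylation, rose by 0.65 and ATAD3B, a mitochondrial ATPase gene, by 0.61. In each of these 5 genes the lowest knockdown value exceeded the highest control value. The same held for 1233 of the 4515 tested genes, and these 5 were chosen for the largest rises.

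The largest fall was that of ALDH3A1, an aldehyde dehydrogenase, from 11.1, 12 and 11.8 FPKM to 4.26, 4.35 and 4.32, a log2 change of -1.25 (SE 0.0440; limma adjusted p = 1.91e-06). Its only peak, 121 bp in the 5′UTR, stood at 2.14-fold. The opioid-related receptor gene OPRL1 fell from 2.70, 2.74 and 2.72 to 1.04, 0.795 and 0.800 (-0.99), and CMTM4 from 17.4, 16.3 and 16.8 to 9.15, 9.27 and 9.21 (-0.81). The tubulin gene TUBB4A fell by 0.77 and the arginine methyltransferase gene PRMT3 by 0.61. A TUBB4A peak shared bases with a control peak listed under another gene. Control peaks were called on TUBB4A, OPRL1, UHRF1 and ATAD3B, and for BCL2L1 on the genes its peaks were called on. No knockdown value of the 5 genes chosen for the largest falls reached the lowest control value, as in 1829 of the 4515 tested genes. Peaks without a control row lay on RNAs that rose and on RNAs that fell.

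**Figure D5:**
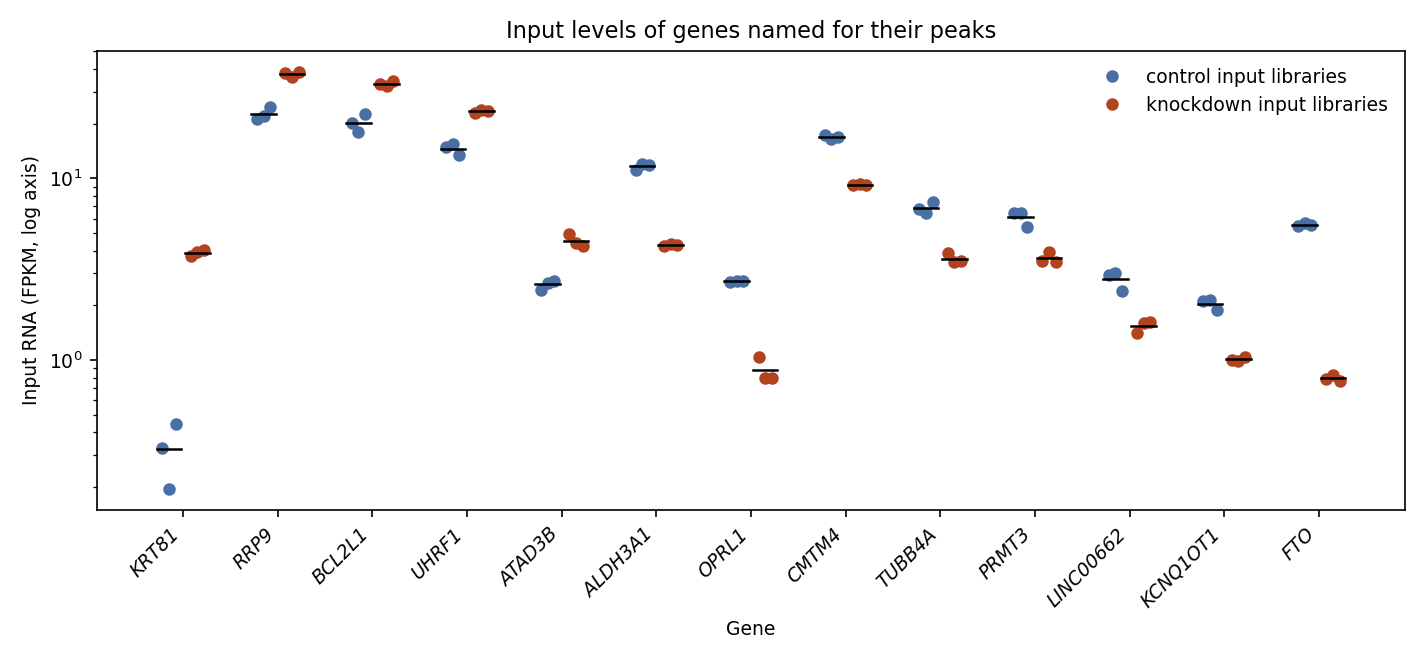
Input level in FPKM (log axis) of 10 genes without a control row and of LINC00662, KCNQ1OT1 and FTO, with 1 point per control or knockdown input library and a line at each mean. In all of these genes the control and knockdown points do not overlap. Among the 4515 tested genes all knockdown values lie above the controls in 1233 and below in 1829. FTO lies between 5.48 and 5.68 in the controls and between 0.765 and 0.830 in the knockdown libraries.

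The authors' deposited table of differential peaks covered 7795 knockdown peaks (27.0%) by place and listed gene. It listed 5209 of them (66.8%) as higher and 2551 (32.7%) as lower in the knockdown, and 35 held both. The share listed as higher was 73.9% of 1121 peaks in the 5′UTR, 66.2% of 3989 in the 3′UTR and 64.9% of 2685 in other exons. Of 171 covered peaks on genes without a control row, 169 were listed as higher and 2 as lower. That table was made from the same libraries as the map, so these shares are a description and support nothing.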

How the data were processed

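Peak lists for knockdown and control cells and a table of differential peaks with input FPKM were used. Per the submitters' processing notes Bowtie 0.12.2, HISAT2 2.0 and StringTie 1.3.0 were used, in roles not stated; the peak caller is not given in the sources used here. The notes name build mm8, a mouse build, but identifiers and positions are human: of 12232 called genes matched by symbol to RefSeq GRCh38.p14, 96.2% had a first peak inside the gene's span, so positions are read as GRCh38, counted from 1. The deposited lists give for each peak a ratio (fold enrichment of IP over input) and log10 p and adjusted p, treated as scores; the authors made 1 list per condition. Per the file headers the authors gave FPKM per input library, log2 fold changes (control over knockdown, turned round here) and p-values and q-values. Of the differential peaks, 283 rows with a p above 1 and no FPKM were left out.

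Length is the summed block sizes. Overlaps (bedtools 2.31.1, Python 3.11.15) need 1 exonic bp and ignore strand. Genes were matched by gene identifier; the plan of alternatives had put the gene name first, which gives 808 genes without a control row in place of 956. Expression was tested with limma 3.58.1 in R 4.3.3 on log2(FPKM + 1) with empirical Bayes trend, two-sided, over genes whose mean reached 1 FPKM, and the fit was tested on simulated data. Samples were grouped by title. Named genes are FTO, HOXC8 and MDM2, the 10 with most peaks, the 10 longest and the 10 most enriched peaks (adjusted p of at most 1e-05), the leading genes without a control row by peaks, adjusted p and limma change, and the top and absent members of each family or list. The members, lists and this rule were chosen with earlier results of these data known. Alternatives varied the peak thresholds, merging, gene matching, pseudocount, expression filter, scaling, replicate block and libraries left out.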

Additional observations from a re-analysis of the deposited data

How the results depend on the processing

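Peak values of 1 list per condition carry no replicate error, and without IP counts a missing peak cannot be told from one below detection. With peaks of adjusted p at most 1e-05, 48.8% of genes had at least 2 peaks, the median length was 331 bp, 51.4% of peaks were in the 3′UTR, 13.2% in the 5′UTR, 37.1% protein-coding and 12.7% lncRNA, and 440 genes had no control row. With at least 4-fold enrichment these were 43.4% with at least 2 peaks, 360 bp, 37.0% protein-coding, 15.6% lncRNA, 39.5% of ribosomal protein genes with a peak, and 637 genes. Merging touching peaks left 47.7% of genes with at least 2. Length was 359 bp as genomic span and 241 bp for peaks of 1 block. Per exonic bp the 3′UTR held 54.1% and the 5′UTR 12.9%; on protein-coding transcripts 44.5% and 28.3%. Counted per gene, 41.4% had a protein-coding and 17.9% a lncRNA peak. Over all family members in RefSeq, 71.7% of zinc finger and 32.9% of ribosomal protein genes had a peak. Genes none of whose peaks shared a base with a control peak numbered 1052, and 1365 with less than 50% shared as the rule.

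The following alternatives were chosen after seeing the data. With only peaks whose listed gene is the called gene, 41.7% were in the 3′UTR, 16.2% in the 5′UTR, 37.2% protein-coding and 11.6% lncRNA; by called gene, 93.1% of zinc finger genes had a peak and 648 genes had no control row. With adjusted p at most 1e-05 in both lists, 1034 genes had none.

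In limma, at least 5 FPKM left 692 falls among map genes and 18 among genes without a control row; median-centring left 20 of the latter. Leaving out each library in turn gave 887 to 1097 rises and 1307 to 1663 falls, and 29 to 39 rises and 24 to 35 falls without a control row. The calls of DST, OLIG2, KMT2A, HELZ2, ALKBH5, METTL16, MIEF2 and COPE were lost under some alternatives, and that of AHNAK2 with median-centring. Over 132 named genes 1507 of 1673 fits kept direction and side of the threshold, 96 lost and 37 gained a call, and none reversed a called change. Same-numbered libraries did not deviate together (correlations of -0.0769, 0.0278 and 0.0247 over 4515 genes). With 3 libraries a condition this cannot tell whether they were prepared in pairs, and the main fit held no pairing term. With the replicate block 1006 map genes rose and 1493 fell, and 35 and 28 of those without a control row.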

Other observations

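Whole miRNA hairpins seldom lay in the exonic blocks of the knockdown map: 20 of the 1562 hairpins in the RefSeq table did, 32 lay in control blocks and 18 in both. MIR2682, inside a 25.9-fold peak on its host RNA MIR137HG, and MIR1184-3, inside a 300-fold peak called on F8A3, lay in knockdown blocks only; F8A3 has near-identical copies, so its peak is uncertain between them. Of the 20, 6 held GGAC followed by any base but G on the hairpin strand, against 373 of all 1562 (23.9%). The following 30-base stretches are shown because each holds GGACU, in capitals, in RNA letters from RefSeq GRCh38.p14; they were chosen after their values were seen.
MIR922 in RUBCN, 17.0-fold, chr3:197674534-197674563, minus strand: ucucccuguccuGGACUggggucagacugu
MIR4453 in MIR4453HG, 8.89-fold, chr4:152536457-152536486, plus strand: cggggcagguggGGACUgcuccuuugggag
MIR3652 in HSP90B1, 8.54-fold, chr12:103930477-103930506, plus strand: ugcgaucgaaggGGACUugagacucaccgg
MIR1182 in FAM89A, 16.4-fold, chr1:231019895-231019924, minus strand: gGGACUugucacugccugucuccucccucu
Each of these 4 peaks was called on the host gene, had a control peak on the hairpin too, and is far longer than the motif, so the match is a description and not a mapped site.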
